A study of Mus musculus with 32 samples.

Results

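The Igkv8 family is a group of related variable (V) gene segments of the mouse immunoglobulin kappa light chain locus. Its members were taken by name from the list Igkv8-16, Igkv8-18, Igkv8-19, Igkv8-21, Igkv8-24, Igkv8-26, Igkv8-27, Igkv8-28, Igkv8-30 and Igkv8-34, which are 10 of the 112 V segments counted in both deposited rearrangement tables. The tables held 11 rows named Igkv8, and the row outside the list, Igkv8-23-1, is described at the close. Each segment was counted separately on the C57BL6 (B6) allele and on the Castaneous (Cast) allele of hybrid cells.

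The cells came from the bone marrow of female F1 mice, aged 8 to 12 weeks, with 1 B6 and 1 Cast parent. Bone marrow cells were grown with interleukin-7 (IL-7) on ST2 feeder cells to select pre-B cells, and each of clones 3, 4, 8, B52 and E9-3 (E93 in the labels) was grown from limiting dilution, so that each clone is a single line. IL-7 was withdrawn for 48 h in all 5 clones, and for 12, 24, 36 and 48 h in a time course of clone 4. A pool represents cells that were not cloned. The labels call it a culture of bone marrow pre-B cells, whereas the methods describe cells selected from the bone marrow of a single mouse and give no time without IL-7. The tables hold V segments alone, so that no marker gene of the cell type could be checked.

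A kappa chain is made when the RAG recombinase cuts DNA at a recombination signal sequence (RSS) beside a V segment and joins the segment to a J segment upstream of the constant exon, Cκ. The RSS of a V kappa segment consists of a heptamer next to the coding end, a short spacer and an AT-rich nonamer. A V segment that points the same way as the J segments and Cκ joins by deletion of the DNA between them, and one that points the opposite way joins by inversion. IL-7 keeps pre-B cells dividing, and its withdrawal lets kappa rearrangement begin. Here the joined RNA was copied from Cκ and sequenced, so that a read reports a V segment that had joined and was transcribed.

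All 10 members are annotated as V genes with 2 exons, a leader exon and a V exon, on chromosome 6 of mm10 (GENCODE M21). The family spans chr6:70044112-70387252, with Igkv8-34 the farthest from Cκ, at 682 kb, and Igkv8-16 the nearest, at 339 kb. The Cκ exon lies at chr6:70726435-70726966 on the plus strand. Igkv8-26 and Igkv8-18 lie on the plus strand, as Cκ does, and the other 8 members on the minus strand. Among the 111 segments found by name in the annotation, 41 point the same way as Cκ.

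The RSS of each member was read from the B6 reference genome (GRCm38.p6, the sequence of mm10), 5′ to 3′ outward from the coding end. The RSS is shown because it is the site at which a V segment is cut, and capitals mark the heptamer and the nonamer. Igkv8-30, Igkv8-28, Igkv8-19 and Igkv8-16 have the same 28 bases, shown for Igkv8-30 only.
Igkv8-30: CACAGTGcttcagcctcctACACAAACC
Igkv8-34: CACAGTGctttagccttctACACAAACC
Igkv8-21: CACAGTGcttcagtctcctACACAAACC
Igkv8-24: CACAGTGcttcagccttctACATAAACC
Igkv8-27: CACAATGcttcagcctcctACAAAAACC
Igkv8-26: CACAGAGcttcagccgcctACACAAACC
Igkv8-18: CACAGAGcttcagctgcctACACAAACC
On mm10 these RSS lie on the minus strand at chr6:70117033-70117060 (Igkv8-30), chr6:70044084-70044111 (Igkv8-34), chr6:70314867-70314894 (Igkv8-21), chr6:70216830-70216857 (Igkv8-24) and chr6:70171781-70171808 (Igkv8-27). Those of the plus strand lie at chr6:70193798-70193825 (Igkv8-26) and chr6:70356446-70356473 (Igkv8-18). The consensus heptamer CACAGTG stood at this place in 7 of the 10 members and in 85.6% of the 111 segments found by name. Counted from the heptamer's 5′ end, Igkv8-27 has G5A, a heptamer shared by 6 of the 111 segments. Igkv8-26 and Igkv8-18, which are also the members on the plus strand, both have T6A, and no other segment has this heptamer. Of the nonamers, ACACAAACC stood in 8 members and in 12 of the 111 segments, whereas the consensus ACAAAAACC stood in Igkv8-27 alone of the members. The Cast genome was not used here, so that nothing is known of these sites on the Cast allele.

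The 6 libraries of the 48 h table held between 34291 reads (clone E9-3) and 320951 reads (the pool). The time course libraries were much smaller, with 1737, 1174, 7092 and 10958 reads at 12, 24, 36 and 48 h. The level of a segment is given below as its percent of all reads of the library, B6 and Cast combined. The allelic ratio is given as the B6 share, the percent of its own reads on the B6 allele. Bracketed ranges are 95% Wilson intervals, and 3 reads are taken as the smallest number that can be told from 0. Because PCR copies could not be told from separate molecules, intervals and limits cover counting error only. A higher percent from more joined cells cannot be told apart from more RNA per joined cell. Clone 4 at 48 h was sequenced in both tables and is the only condition with more than 1 library, but nothing says that its libraries came from separate cultures. Over the 74 segments with at least 20 reads in both of its libraries, the log2 ratio of the levels had an SD of 0.947, and the median difference of the B6 share was 7.90 percentage points. These values are the only measure of spread here, and every edgeR test between clones takes the other clones to vary like clone 4. Its p-values measure the spread between these libraries, which may be technical. Because these libraries stand in different tables, a difference in how the tables were made or counted cannot be told apart from a difference between the libraries, here and wherever both are compared below.

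Libraries also differed at 3 segments outside the family in a way that separated the pool and clones 4 and 8 from clones 3, B52 and E9-3. The B6 alleles of Igkv10-94 and Igkv3-5 were read in every library of the first set and in none of the second, and the Cast allele of Igkv4-73 was read in every library of the second set and in none of the first. In the 48 h table clone 4 had 14 and 27 B6 reads at Igkv10-94 and Igkv3-5 and 0 Cast reads at Igkv4-73. The 4 time course libraries of the same clone together had 0 B6 reads at both former segments and 10 Cast reads at Igkv4-73. No member of the family showed such a pattern, and values within each set of libraries are given below where they bear on a result.

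The family ranged from a segment among the most used of the repertoire to one that was never read. Igkv8-30, Igkv8-28, Igkv8-24 and Igkv8-21 supplied most of the family's reads, Igkv8-19, Igkv8-34 and Igkv8-16 were intermediate, Igkv8-18 and Igkv8-26 were rare, and Igkv8-27 had no read. Every member other than Igkv8-27 reached at least 3 reads in each of the 6 libraries of the 48 h table.

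Igkv8-30 had the most reads of the family, with 15222 over the 6 libraries. It made up 2.97%, 2.91%, 2.71%, 2.00% and 2.65% of reads in clones 3, 4, 8, B52 and E9-3, or 2.65% ± 0.388 (SD, n = 5). The clones differed by no more than 1.49-fold at this segment, the narrowest range of any member read. The pool had 0.904% [0.872-0.938], below each clone, and Igkv8-30 ranked 42nd in the pool and between 6th and 11th in the clones.

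Igkv8-24 led the family in the pool, at 2.11% [2.06-2.16]. It made up 2.26%, 1.39%, 0.373%, 0.279% and 1.03% in clones 3, 4, 8, B52 and E9-3. The clones thus spread over an 8.09-fold range, with clone 3 at the top and clones 8 and B52 at the bottom. Igkv8-28 made up 0.941% in the pool and 1.21%, 1.68%, 1.42%, 0.353% and 0.519% in the same order of clones. In the 48 h table clones 3, 4 and 8 lay above the pool, and clones B52 and E9-3 below it. The other library of clone 4 at 48 h, at 0.922%, lay just below the pool. Igkv8-21 was more even, with 0.510% in the pool and 1.14%, 0.959%, 0.492%, 0.686% and 1.33% in clones 3, 4, 8, B52 and E9-3.

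Of the intermediate members, Igkv8-34 was at 0.127% in the pool and at 0.855%, 0.257%, 0.0739%, 0.453% and 0.513% in clones 3, 4, 8, B52 and E9-3, a range of 11.6-fold between clones and the widest in the family. Igkv8-16 followed the same order of clones at the ends, at 0.0701% in the pool and 0.365%, 0.0897%, 0.0428%, 0.229% and 0.248% in clones 3, 4, 8, B52 and E9-3. In the 48 h table clones 3, B52 and E9-3 lay above the pool and clones 4 and 8 with no overlap at these segments and at Igkv8-18. With the other library of clone 4 at 48 h this held at Igkv8-34 only, since that library had 0.246% at Igkv8-16 and 0.0730% at Igkv8-18. Levels without overlap between these sets, in either direction, were seen at 39.8% of the 98 segments read in each of the 6 libraries, and at 3 of the 9 members. In the 48 h table Igkv8-19 ranged from 0.178% in clone B52 to 0.589% in clone 3, with 0.254% in the pool. The other library of clone 4 at 48 h had 1.18% at this segment, above clone 3, whereas clone 4 had 0.275% in the 48 h table.

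Both members with the heptamer CACAGAG were rare. Igkv8-18 lay between 0.0620% in the pool and 0.114% in clone B52, and Igkv8-26 between 0.00579% in clone B52, or 4 reads, and 0.0399% in the pool. Averaged over the 5 clones the level was 0.0829% at Igkv8-18 and 0.0225% at Igkv8-26, against a median of 0.687% over the 85 functional segments with the consensus heptamer, which spread from 0.000336% to 7.92%. Of those 85 segments 11 lay under 0.1%, and of the 13 functional segments with another heptamer, both of these members included, 6 did, with a median of 0.173%. The other 7 members read, all with CACAGTG on the minus strand, include Igkv8-16 at 0.195%. This is a comparison of few segments and carries no test.

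Igkv8-27 had 0 reads in all 10 libraries, of 794705 reads in total, which allows a level of up to 0.000377%. In the pool alone, 0 of 320951 reads allows up to 0.000935%. The segment is annotated as a functional V gene, and the median level over the clones of the 6 segments with its heptamer CACAATG, Igkv8-27 included, was 0.428%.

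**Figure D1:**
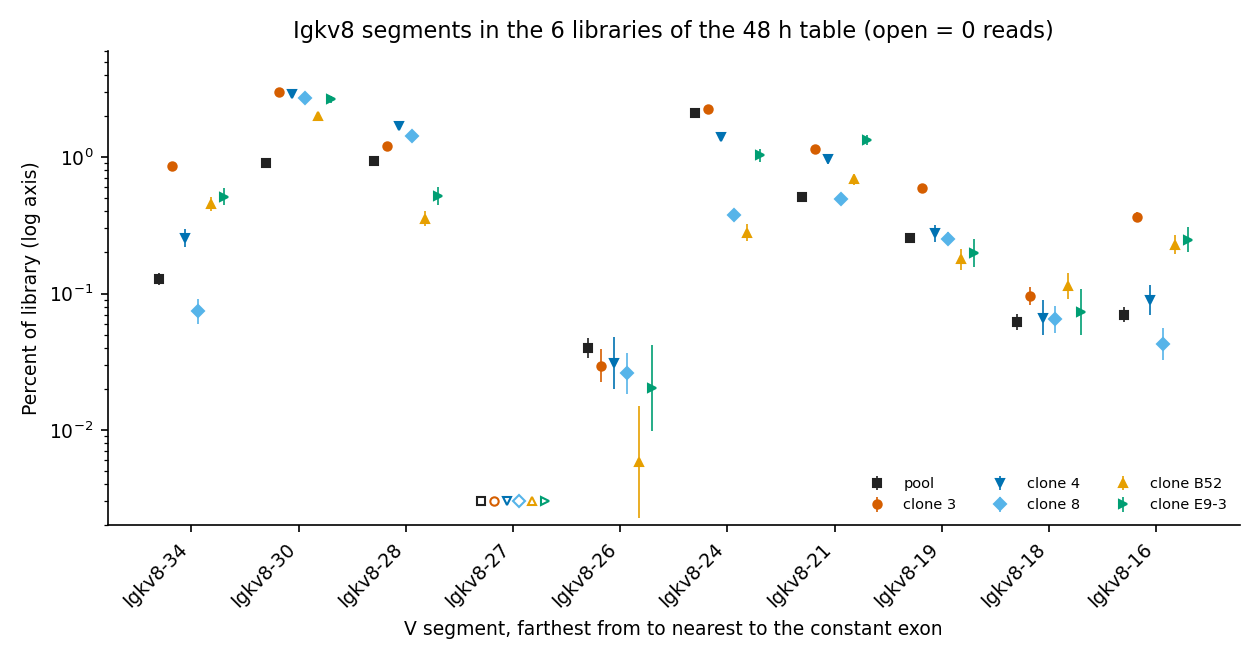
Percent of library of each Igkv8 segment (log axis) in the 6 libraries of the 48 h table, with segments ordered from the farthest from Cκ to the nearest. Points are single libraries, bars are 95% Wilson intervals and open symbols at the foot mark 0 reads. Igkv8-30 sits between 2.00% and 2.97% in the 5 clones, Igkv8-24 spreads from 0.279% to 2.26%, and Igkv8-27 has no read.

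Differences in level between the 5 clones were tested for each segment and allele with edgeR's quasi-likelihood F test and Benjamini-Hochberg adjustment over all 181 rows tested. The test called 16.6% of all rows and 1 of the 15 rows of the family, the Cast allele of Igkv8-24 (adjusted p = 0.0392). Without the filter on low counts its adjusted p was 0.0552, and by DESeq2 it was 0.418. This allele was highest in clone 3, at 0.852% of the library, against 0.237%, 0.0639%, 0.0955% and 0.420% in clones 4, 8, B52 and E9-3. In clone 3 against the mean of the other 4 clones it was 2.58 ± 0.80 (SE) higher on the log2 scale (edgeR, adjusted p = 0.0364), where the test called 4.42% of rows. By DESeq2 the same difference of 2.59 had an adjusted p of 0.386, and without the filter on low counts edgeR gave 0.0524. No row of the family was called in the contrasts of clones 4, 8, B52 or E9-3 with the other clones by edgeR, which called 6.63%, 8.29%, 10.5% and 6.63% of all rows there, and at an unadjusted p under 0.05 they held 2, 3, 0 and 0 family rows of 15, against 33, 40, 29 and 22 of all 181 rows. In the contrast of clone 3, 6 family rows and 24 of all rows had an unadjusted p under 0.05, and 13 of the 15 family rows had a positive estimate. The median log2 difference there was 1.28 over the family's rows and 0.23 over all 181 rows. On counts simulated for the contrast of clone 3, with a dispersion of 0.15, the test recovered 36 of 40 rows changed 8-fold. That dispersion was chosen and not estimated from these libraries, so that the recovery does not measure the power on the real counts.

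When clones 4 and 8, or clones 3, B52 and E9-3, were compared with each other only, no row of the family was called by edgeR. Clone 4 entered this fit with both of its libraries, which differ at Igkv10-94, Igkv3-5 and Igkv4-73. Clone 4 against clone 8 gave calls at 0.552% of rows, and clones 3, B52 and E9-3 compared with each other at 3.31%. At an unadjusted p under 0.05 the family had 0 of 15 rows in both, against 10 and 11 of all 181 rows.

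The pool was compared with the mean of the 5 clones in the same fit. No family row passed (8.29% of all rows did), with 1 of 15 family rows and 39 of all 181 rows at an unadjusted p under 0.05. That row was the Cast allele of Igkv8-24, 1.84 ± 0.80 (SE) higher in the pool on the log2 scale (edgeR, adjusted p = 0.139). The B6 allele of Igkv8-30 was 1.73 ± 0.94 (SE) lower in the pool (edgeR, adjusted p = 0.292), so that the lower level of Igkv8-30 in the pool did not pass the test.

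Reads of the family fell mostly on B6. Over the 5 clones, Igkv8-34, Igkv8-30, Igkv8-28, Igkv8-26, Igkv8-19 and Igkv8-18 had more B6 than Cast reads, Igkv8-16 was read almost only on Cast, and Igkv8-24 and Igkv8-21 did not pass the test. The edgeR test of the mean B6 to Cast ratio over the 5 clones called 47.6% of the 105 segments toward B6 and 9.52% toward Cast. Of the 9 members tested it called 6 toward B6 and 1 toward Cast, with a median log2 ratio of 2.09 over the members and 1.52 over all segments. Since whole libraries leaned to B6, scaling each allele to its own total lowered the median over all segments to 0.81. Of all 105 segments 40 were then called toward B6 and 19 toward Cast, and of the members 4 toward B6 and 1 toward Cast. The call was lost at Igkv8-28 (adjusted p = 0.0845) and Igkv8-19 (adjusted p = 0.0788).

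Igkv8-34 and Igkv8-16 lay at the opposite ends. Igkv8-34 had 2603 B6 reads and 0 Cast reads over all 10 libraries, and in the 5 clones its 2160 B6 reads were at least 720-fold higher than the Cast allele, taking 3 Cast reads over the group as the limit. In each library of the 48 h table its B6 share was 100%, with lower interval bounds from 95.8% in clone 8 to 99.7% in clone 3. Igkv8-16 had 50 B6 and 1131 Cast reads over the 6 libraries, and its B6 share lay between 0% in clones B52 and E9-3 and 6.79% in clone 3. At these 2 segments the allele read was the same in the pool and in every clone.

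The rare members Igkv8-26 and Igkv8-18 were also read mainly on B6. Igkv8-26 had 236 B6 and 3 Cast reads over the 6 libraries, of which clone B52 held 2 of each, a B6 share of 50% [15.0-85.0]. Igkv8-18 had a B6 share of 79.4% in the pool and of 86.2%, 97.7%, 100%, 100% and 92.0% in clones 3, 4, 8, B52 and E9-3. Igkv8-26 and Igkv8-18 differ in the V exon at 6 of 321 aligned bases on the B6 reference, and how well reads were told apart there was not tested.

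At the abundant segments the B6 share varied between the libraries, and the test of the difference between clones called Igkv8-30 alone. Igkv8-30 had a B6 share of 43.2% [41.8-44.6], 93.2% [91.9-94.2], 96.4% [95.7-97.0], 75.4% [73.0-77.6] and 58.3% [55.1-61.5] in clones 3, 4, 8, B52 and E9-3, and of 72.8% in the pool. Clone 3 alone had more Cast than B6 reads. The counting intervals of the 5 libraries did not overlap, but the other library of clone 4 at 48 h was at 100%, on the far side of clone 8. The difference of the ratio between the clones passed by a narrow margin (edgeR quasi-likelihood F test, adjusted p = 0.0489), where the test called 11.4% of the 105 segments and 1 of the 9 members. With each allele scaled to its own total the adjusted p was 0.202, and with DESeq2 it was 1.00.

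Igkv8-19 had the widest range of the family, from 39.1% in clone 3 to 98.7% in clone 8, with 96.1%, 60.2% and 51.5% in clones 4, B52 and E9-3 and 75.6% in the pool. Its difference between clones missed the threshold (edgeR, adjusted p = 0.0573). Igkv8-28 gave 49.2%, 89.9%, 86.6%, 57.8% and 64.0% in clones 3, 4, 8, B52 and E9-3 (edgeR, adjusted p = 0.342) and 63.0% in the pool. The 3 segments thus shared an order in which clones 4 and 8 were high, clone 3 was lowest, and the pool lay between.

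Igkv8-24 and Igkv8-21 moved less. The B6 share of Igkv8-24 was 59.2% in the pool and 62.3%, 83.0%, 82.9%, 65.8% and 59.1% in clones 3, 4, 8, B52 and E9-3. That of Igkv8-21 was 54.8% in the pool and 40.7%, 70.8%, 64.8%, 53.0% and 55.5% in the same clones, the closest to balance in the family. Both were again highest in clones 4 and 8. Over the 5 clones the mean log2 ratio was 1.50 ± 0.72 (SE) at Igkv8-24 (edgeR, adjusted p = 0.0665) and 0.43 ± 0.48 (SE) at Igkv8-21 (edgeR, adjusted p = 0.457). At Igkv8-30, Igkv8-19 and Igkv8-28 it was 2.37 ± 0.61, 2.09 ± 0.66 and 1.70 ± 0.61 (SE), with adjusted p-values of 0.000396, 0.00446 and 0.0122 by edgeR. By DESeq2 the calls of Igkv8-30 (adjusted p = 0.055) and Igkv8-28 (adjusted p = 0.118) were lost, although its log2 ratios, 2.60 and 1.88, were no smaller.

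**Figure D2:**
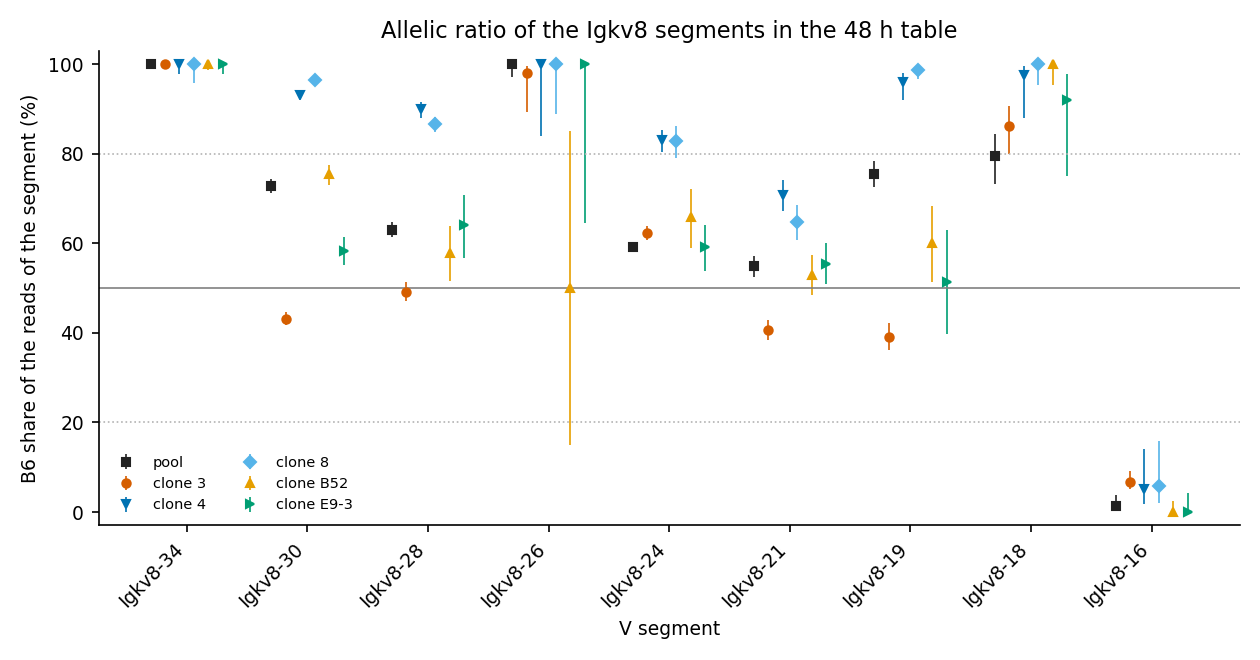
B6 share (percent of the reads of a segment on the B6 allele) of the 9 Igkv8 segments read, in the pool and 5 clones of the 48 h table. Points are single libraries, bars are 95% Wilson intervals, the solid line marks 50% and the dotted lines 20% and 80%. Igkv8-34 stays at 100% and Igkv8-16 under 7%, whereas Igkv8-30 spreads from 43.2% in clone 3 to 96.4% in clone 8.

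On the reads alone, a Monte Carlo chi-square test of the B6 share between the 5 libraries of the 48 h table called 8 of 9 members and 76.9% of 104 segments. After each count was divided by 15.4, which is how far the libraries of clone 4 exceeded sampling noise on average, the test called 5 of 9 members, Igkv8-30, Igkv8-28, Igkv8-24, Igkv8-21 and Igkv8-19, and 40.4% of segments. These tests compare libraries, not clones.

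Among the libraries of the 48 h table, the B6 share of Igkv8-30 ranged over 32.2 points in clones 3, B52 and E9-3 and over 23.6 points in the pool and clones 4 and 8, with some overlap between the sets, from 72.8% in the pool to 75.4% in clone B52. Igkv8-19 was the member at which the sets did not overlap, at 75.6% or more in the first set and 60.2% or less in the second, against 22.4% of the 98 segments read in all 6 libraries. For clone 4 against clone 8 the edgeR test of the ratio called 0 members and 0 of 105 segments (4 at an unadjusted p under 0.05, with 0 members). Among clones 3, B52 and E9-3 it called 0 members and 3.81% of segments. No member was called for any single clone against the other 4, or for the pool against the clones, by edgeR, which called 0%, 5.71%, 4.76%, 2.86% and 4.76% of segments for clones 3, 4, 8, B52 and E9-3 and 3.81% for the pool. At an unadjusted p under 0.05 these contrasts held 2, 2, 1, 1, 0 and 0 of 9 members in the same order, against 10, 15, 13, 9, 7 and 13 of all 105 segments. In counts simulated with the same chosen dispersion, the test recovered 5 of 20 segments changed 8-fold on 1 allele in clone 3 alone. Changes of this size in a single clone were thus mostly not detectable there.

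A member was taken as skewed where over 80% of at least 10 reads lay on 1 allele. In clones 4 and 8, 8 of 9 members were skewed, against 58.3% and 61.4% of all segments in those clones. Of the neighbours of the family between map numbers 13 and 39, 6 of 15 were skewed in clone 4 and 11 of 13 in clone 8. The high share in clone 8 was thus not particular to Igkv8. Clone 3 had 4 of 9 (52.9% of all segments), clones B52 and E9-3 each had 3 of 8 (53.1% and 45.3%), and the pool had 3 of 9 (44.6%). In the pool the skewed members were Igkv8-34, Igkv8-26 and Igkv8-16.

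Across the 6 libraries the segments outside the family whose B6 share was most like that of Igkv8-30 were Igkv3-4, Igkv6-25 and Igkv4-78, with mean absolute differences of 7.91, 8.60 and 8.84 points. For Igkv8-24 they were Igkv9-129, Igkv6-15 and Igkv4-78 (6.94, 9.70 and 9.80 points), and for Igkv8-28 they were Igkv4-78, Igkv6-25 and Igkv9-129 (7.31, 7.90 and 7.90 points). The median over the 84 segments with at least 10 reads in every library was between 24.8 and 26.7 points. Igkv6-25 and Igkv6-15 are also neighbours of the family on the map.

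Summed over its members, the family made up 5.02% of the pool and 9.52%, 7.66%, 5.45%, 4.29% and 6.57% of clones 3, 4, 8, B52 and E9-3. The 9 counted Igkv6 segments, which are interleaved with Igkv8 on the map, made up 13.7% of the pool and 14.7%, 12.6%, 6.59%, 6.14% and 9.93% of the same clones. Igkv8 was lower than Igkv6 in all 5 clones, by 3.09 percentage points on average (SD 1.61, n = 5, clone 4 as the mean of its 2 libraries). The exact two-sided sign-flip permutation test gave p = 0.0625, the smallest that 5 clones allow, so that the design cannot reach 0.05. As a percent of the Cast reads alone the difference was -2.10 points on average and 1 of 5 clones went the other way, clone 8, with 1.53% for Igkv8 and 0.867% for Igkv6 (exact p = 0.125).

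The B6 share of the family's reads was 63.5% in the pool and 52.2%, 87.2%, 89.5%, 68.3% and 59.7% in clones 3, 4, 8, B52 and E9-3. All other segments together had 57.1% in the pool and 51.1%, 70.5%, 61.3%, 65.7% and 53.3% in those clones. The family lay above the rest in all 5 clones, by 10.8 points on average (SD 11.2, n = 5), again with the smallest possible exact permutation p of 0.0625. Clone 8, at 28.2 points, and clone 4, at 16.7 points, were far above clones 3, B52 and E9-3, at 1.16, 2.63 and 6.42 points. With clone 4 as the mean of its libraries, at 16.7 points in the 48 h table and 14.5 points in the time course, clones 4 and 8 averaged 21.9 points and clones 3, B52 and E9-3 3.40 points, but the pool, at 6.46 points, lay near clone E9-3. Without clone 8 the mean over the clones was 6.46 points. Without Igkv8-30 the family lay above the rest in 4 of 5 clones, with clone B52 at -3.72 points, and over the segments that had 3 or more reads of both alleles it did so in 3 of 5. The Igkv6 segments also lay above the rest of their library in all 5 clones of the 48 h table, by 1.84 points in clone E9-3 to 34.5 points in clone 8, with 17.8 points in clone 4, so that a lean to B6 of this kind was not particular to Igkv8. The 15 neighbours of the family between map numbers 13 and 39 had a B6 share between 2.24 points below and 12.1 points above the rest of their library in the 5 clones, and 10 of the 15 were called in the mean ratio over the clones, 7 toward B6 and 3 toward Cast.

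**Figure D3:**
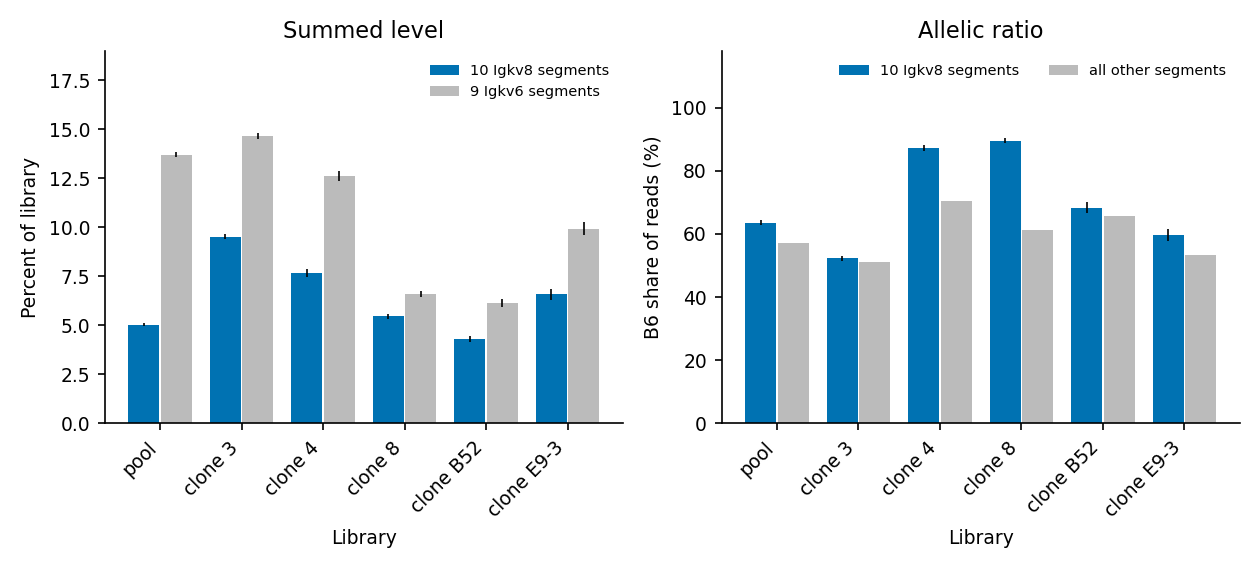
Left, percent of library of the 10 Igkv8 and the 9 Igkv6 segments in the 6 libraries of the 48 h table. Right, B6 share of the Igkv8 reads and of all other reads, where each bar is 1 library and thin lines are 95% Wilson intervals, not drawn for all other reads. Igkv8 lies below Igkv6 in each library, and its B6 share lies above the rest by 28.2 points in clone 8 and by 1.16 points in clone 3.

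Reads of the family appeared after 12 h. At 12 h, 0 of 1737 reads came from the family, which allows a level of up to 0.173%, and at 24, 36 and 48 h it made up 3.66% [2.73-4.90], 5.88% [5.36-6.45] and 6.94% [6.47-7.43]. The level at 48 h was therefore at least 40.2-fold higher than at 12 h, taking 3 reads in the 12 h library as the limit. The 12 h library was dominated by Igkv19-93, a segment that held 59.0% of its reads, 31.9% at 24 h, 14.9% at 36 h and 8.94% at 48 h. Without Igkv19-93 the family made up 0 of 713 reads at 12 h, which allows up to 0.421%, and 7.62% at 48 h. The limit on the fold is thus lower without that segment, but the difference on the reads still passed (two-sided Fisher's exact test, p = 4.04e-24). Between the 24 and 36 h libraries the difference passed on the reads with Igkv19-93 included (Fisher's exact test, p = 0.00154), but not without it (p = 0.114). These tests take reads as independent and compare single libraries, not times. The Igkv6 segments were at 0.230%, 3.75%, 8.52% and 9.93% in the same libraries.

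Igkv8-30 was the first member to appear in number. It had 0, 26, 197 and 258 reads at 12, 24, 36 and 48 h, or 0%, 2.21%, 2.78% and 2.35% of the library, and supplied 26 of the 43 family reads at 24 h. Its level at 24 h already lay within the interval of that at 48 h. Igkv8-21 had 0%, 0.852%, 0.874% and 1.18%, with 10 reads at 24 h. Igkv8-28 had 0%, 0.170%, 0.691% and 0.922%, Igkv8-24 had 0%, 0.0852%, 0.620% and 0.767%, and Igkv8-19 had 0%, 0%, 0.578% and 1.18%. These 3 segments had 0 to 2 reads each at 24 h and at least 41 at 36 h.

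The remaining members stayed low. Igkv8-34 had 0, 3, 14 and 17 reads, Igkv8-16 had 0, 1, 6 and 27, Igkv8-18 had 0, 0, 3 and 8, and Igkv8-26 had 0, 0, 1 and 7. No level of these 4 segments reached 0.3%, and for each of them the intervals at 36 and 48 h overlapped.

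With a straight line over the 4 libraries, edgeR called no family row of 6 tested (8.99% of all 89 rows were called), and 2 family rows had an unadjusted p under 0.05, against 24 of all 89 rows. All 6 slopes were positive, with the B6 allele of Igkv8-19 the steepest at 2.14 ± 0.79 (SE) log2 units per 12 h (adjusted p = 0.0859). The median slope was 1.15 over the family's rows and 0.37 over all rows. Since the family had 0 reads at 12 h, its rows passed the filter through the later libraries only. A positive slope was thus nearly fixed in advance, and neither the signs nor this median is a result. On the reads of 12 h against 48 h, Fisher's exact test called 6 family rows of 13 higher at 48 h (34.6% of 162 rows) and 0 lower (7.41%). With 0 reads at 12 h, no family row could be lower at 48 h, so that the latter count was fixed in advance. The 6 rows were the B6 alleles of Igkv8-30, Igkv8-28, Igkv8-24, Igkv8-21 and Igkv8-19 and the Cast allele of Igkv8-21. The test of the B6 to Cast ratio over time called no member of 5 (4.48% of 67 segments), with 0 members and 7 of all 67 segments at an unadjusted p under 0.05.

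**Figure D4:**
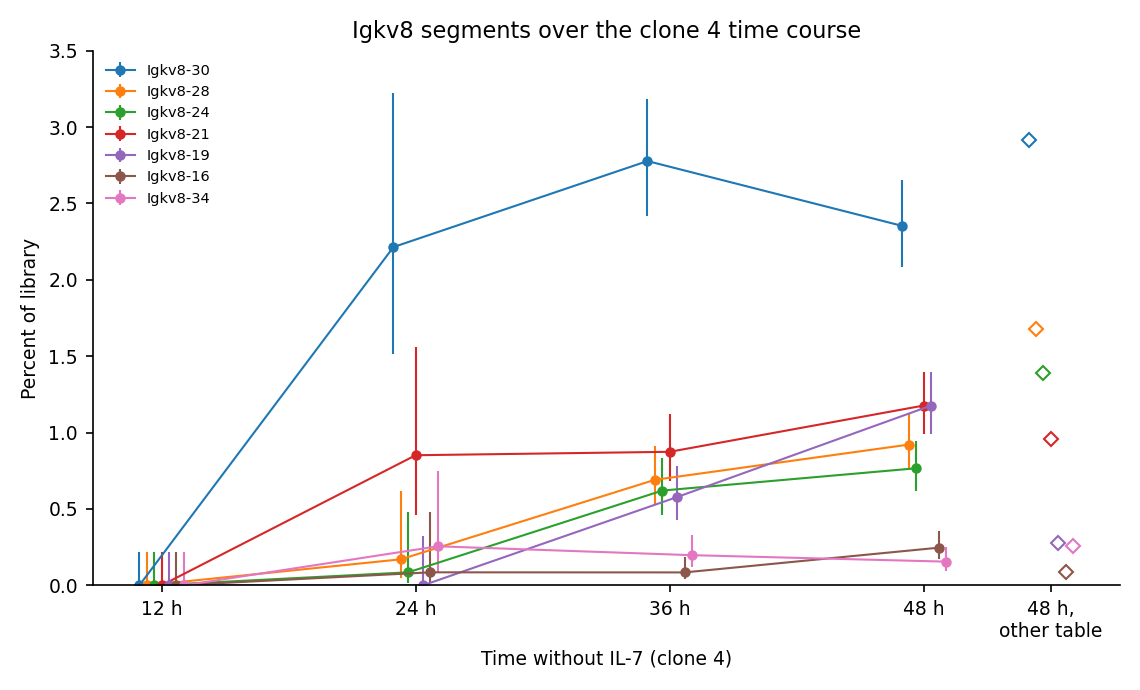
Percent of library of 7 Igkv8 segments against time without IL-7 in the clone 4 time course, with 95% Wilson intervals as bars on single libraries. Open diamonds at the right edge, off the time scale, give the library of clone 4 at 48 h from the other table. Igkv8-30 reaches 2.21% at 24 h, whereas Igkv8-19 has 0 reads at 24 h and reaches 1.18% at 48 h.

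The family sum was 7.66% in the 48 h table library of clone 4 and 6.94% in the time course library, a difference that passed on the reads (Fisher's exact test, adjusted p = 0.0181 over 23 comparisons). Its B6 share was 87.2% and 90.3%. On the reads, 5 members differed in level between these libraries by the same tests, which were run on the family only. Segments in general also differed. The median absolute log2 ratio was 0.630 over the 74 segments with at least 20 reads in both libraries, and 0.862 over the 6 members among them. Igkv8-24 was at 1.39% in the 48 h table and 0.767% in the time course (adjusted p = 8.05e-08), Igkv8-16 at 0.0897% and 0.246% (adjusted p = 0.000259) and Igkv8-30 at 2.91% and 2.35% (adjusted p = 0.00276). Igkv8-19 was at 0.275% [0.238-0.319] in the 48 h table and at 1.18% [0.992-1.40] in the time course, whereas Igkv8-28 was at 1.68% [1.58-1.78] and 0.922% [0.759-1.12], with adjusted p-values of 1.14e-30 and 3.65e-09 by Fisher's exact test.

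Igkv8-28 and Igkv8-19 are close relatives. Their V exons are 97.8% identical on the B6 reference, each being the closest relative of the other, and differ at 7 of 316 positions, counted from the 5′ end of the exon, at G46C, T51A, G129A, G177T, C236A, T248C and C303T (Igkv8-28 first). The stretch that holds all the differences, from position 40 to 310 of the exon, is printed 5′ to 3′ on the coding strand, which is the minus strand of mm10, at chr6:70143599-70143869 for Igkv8-28 and chr6:70340882-70341152 for Igkv8-19. The stretch shows how few bases tell the reads of one segment from those of the other, and capitals mark the differing bases.
Igkv8-28: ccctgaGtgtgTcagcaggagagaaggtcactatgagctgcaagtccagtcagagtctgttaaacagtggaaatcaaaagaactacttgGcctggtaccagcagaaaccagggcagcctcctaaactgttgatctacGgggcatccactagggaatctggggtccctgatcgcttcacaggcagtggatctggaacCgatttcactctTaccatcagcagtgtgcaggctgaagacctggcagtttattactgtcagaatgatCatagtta
Igkv8-19: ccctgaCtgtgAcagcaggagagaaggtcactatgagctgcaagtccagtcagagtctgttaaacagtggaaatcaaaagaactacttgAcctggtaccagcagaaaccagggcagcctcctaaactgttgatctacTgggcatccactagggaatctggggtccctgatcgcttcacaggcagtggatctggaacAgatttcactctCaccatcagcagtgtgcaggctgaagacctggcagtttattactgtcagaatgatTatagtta
Combined, both segments made up 1.95% of the 48 h table library of clone 4 and 2.10% of the time course library at 48 h, a difference that did not pass on the reads (Fisher's exact test, adjusted p = 0.458 over 23 comparisons of these libraries). Igkv8-19 held 14.1% [12.3-16.1] of the pair's reads in the former and 56.1% [49.6-62.3] in the latter (Fisher's exact test, adjusted p = 2.38e-38). At 36 h it held 45.6%, and in the other libraries of the 48 h table between 15.1% (clone 8) and 33.5% (clone B52). The paper's methods give 2 read lengths without naming the libraries of each, and the part of read length in the split was not tested.

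**Figure D5:**
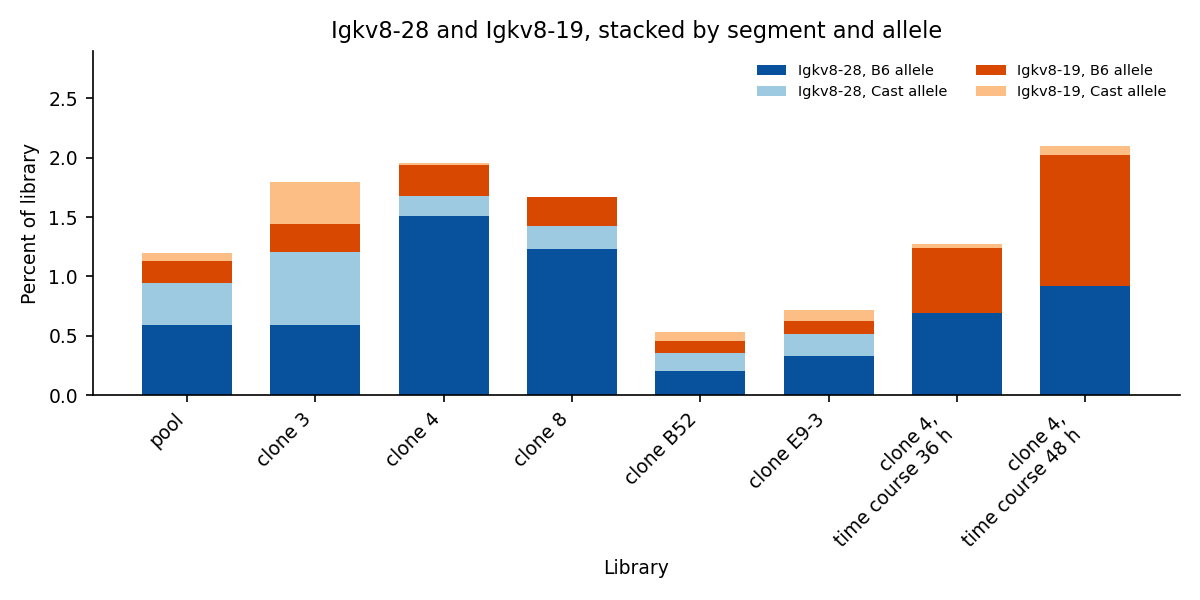
Percent of library of Igkv8-28 (blue) and Igkv8-19 (orange), stacked and divided by allele (dark, B6, and light, Cast), in the 6 libraries of the 48 h table and in the clone 4 time course at 36 and 48 h. The stacks of clone 4 at 48 h reach 1.95% and 2.10%, but Igkv8-19 holds 14.1% of the first and 56.1% of the second.

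The libraries of clone 4 also differed on the Cast allele. In the 48 h table clone 4 had 129 Cast reads at Igkv8-30 and 109 at Igkv8-28, which are 6.84% and 10.1% of the segments' reads. In the time course, 0 of 481 reads of Igkv8-30 and 0 of 152 reads of Igkv8-28 were on Cast over the 4 libraries, which allows a Cast share of up to 0.624% and 1.97%. At 48 h alone the B6 shares of both segments differed between the libraries (Fisher's exact test, adjusted p = 3.14e-07 for Igkv8-30 and 0.00027 for Igkv8-28). These differences were 6.84 and 10.1 points, near the median of 7.90 points over the 74 segments compared between these libraries. Of the 53 segments with at least 20 Cast and 20 B6 reads in clone 4 of the 48 h table and at least 20 reads in the time course, 4 of them members, Igkv8-30 and Igkv8-28 were the ones with no Cast read in the time course. Another pair, Igkv2-137 and Igkv11-125, which are outside the family, had no B6 read. The Cast share of Igkv8-24 at 48 h was 17.0% in the 48 h table and 5.95% in the time course, which also differed on the reads (Fisher's exact test, adjusted p = 0.0181). That of Igkv8-21 was 29.2% and 27.1% (adjusted p = 0.857), and that of Igkv8-16 was 94.8% and 96.3%.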

How the data were processed

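Rearranged kappa RNA was reverse transcribed from Cκ and amplified by ligation-mediated PCR. Trimmed paired reads were aligned with Bowtie2 to a genome that joins the B6 and Cast sequences and were assigned to V segments with HTSeq (versions not given in the sources used here). The authors deposited raw read counts per segment and allele, without normalization. Samples were grouped from the labels. The 10 members and the lists were chosen with earlier results of these data known, and the named segments are the members (map neighbours by counts only), the 3 most alike segments of each of the 3 most read members, and Igkv19-93. Further segments (Igkv10-94, Igkv3-5, Igkv4-73, Igkv2-137, Igkv11-125 and Igkv8-23-1) were chosen after seeing their values.

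Counts of all segments were tested with edgeR 4.0.16 in R 4.3.3 (filterByExpr with a minimum count of 10, TMM for levels, library totals for ratios, glmQLFit and glmQLFTest, Benjamini-Hochberg, threshold 0.05). The 7 libraries at 48 h and of the pool left 1 residual degree of freedom and the time course 2. At 48 h the robust prior drew rows to the shared trend of spread, but in the fit of levels not all to the same degree. Between the clones the Cast allele of Igkv8-30 had a larger F than the B6 allele of Igkv8-34, yet also a larger p-value. The fit was tested on simulated counts. DESeq2 1.42.0, other scalings and filters, chi-square tests with 9999 draws and exact tests on reads were alternatives. Python 3.11.15, SciPy 1.17.1 and Biopython 1.88 were used for exact tests and alignments. The ATAC-seq and nuclear RNA libraries were not analysed here.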

Additional observations from a re-analysis of the deposited data

Results flagged for a closer look

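Igkv8-30 was singled out because its B6 to Cast ratio differed between the 5 clones in the test of that difference itself (edgeR quasi-likelihood F test, adjusted p = 0.0489). The B6 share was lowest in clone 3, at 43.2%, and highest in clone 8, at 96.4%. Under the alternatives of that fit the adjusted p was 0.0495 without the filter, 0.202 with each allele scaled to its own total and 1.00 with DESeq2.

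Igkv8-23-1 was singled out because the tables count it, although it is outside the list of members. It had 213 reads in the pool, all on B6, and 281, 68, 62, 37 and 91 B6 reads in clones 3, 4, 8, B52 and E9-3, with 0 Cast reads in any of the 10 libraries. In the 48 h table its level was highest in clone E9-3, at 0.265%, and lowest in clone 8, at 0.0521%. GENCODE M21 holds no segment of this name, and RefSeq for GRCm38.p6 places it at chr6:70240427-70240710. With Igkv8-34 it makes a pair of Igkv8 segments read on B6 alone.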

How the results depend on the processing

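By DESeq2 the calls fell from 30 to 17 for level between clones (family 1 to 0), from 66 to 38 for level in single clones, from 12 to 1 for the ratio between clones (family 1 to 0), from 19 to 1 for the ratio in single clones and from 4 to 0 for the ratio of the pool. In single clones DESeq2 called the Cast allele of Igkv8-19 lower in clone 8 in place of Igkv8-24. Without the filter the family's calls for level went from 1 to 0, both between clones and in single clones, and calls over the time course from 8 to 4, as with library totals only (4). With each allele scaled to its own total the family had 0 calls for the ratio between clones, and the calls of the mean ratio over the clones split into 40 toward B6 and 19 toward Cast, against 50 and 10. Chi-square tests on reads called 80 segments and 8 members, or 42 and 5 with divided counts, and Fisher's exact tests on 12 and 48 h called 68 rows for level, 6 of the family, and 8 segments for the ratio, against 3. Chosen after seeing the data, clone 4 against clone 8 gave 1 call for level and 0 for the ratio, and clones 3, B52 and E9-3 gave 6 and 4, with 0 of the family in each. The pool had 6 skewed members instead of 3 where a member needed only 2 reads on an allele for each on the other. At that cut 66.3% of all segments in the pool were skewed, against 66.7% of the members, so that this count was not particular to Igkv8. Leaving out 1 clone or 1 library of clone 4 moved the Igkv8 minus Igkv6 difference between -3.57 and -2.58 points and the B6 share difference between 6.46 and 13.2 points, and the latter was 8.72 points, positive in 3 of 5 clones, over the 84 segments with 3 reads on each allele. Without either library of clone 4 the edgeR fits at 48 h have no residual degrees of freedom and could not be fitted. No paired analysis was possible because the labels give these libraries no replicate numbers.

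Of the members, the mean ratio over the clones lost its call by DESeq2 at Igkv8-28 (adjusted p = 0.118) and Igkv8-30 (adjusted p = 0.055). The log2 ratios at these segments were 1.88 and 2.60 by DESeq2, against 1.70 and 2.37 by edgeR. The cause of these changes was not tested. Depth limited the 12 and 24 h libraries most, where 3 reads equal 0.173% and 0.256%.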
